A study of Mus musculus with 15 samples.

Results

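The crosslink sites of the tristetraprolin mutant TTP-AA were compared between early and late stimulation of macrophages with lipopolysaccharide (LPS), using every site in the pooled GFP-TTP-AA lists at 1 h (86497 sites) and 4 h (9417 sites), which together hold 95914 of the 162273 sites in the 6 lists of the series. Sites came from iCLIP, in which UV light crosslinks a protein to RNA, the protein is purified, and the end of each truncated cDNA marks the crosslinked nucleotide. The value of a site was its count of unique cDNAs. The cells were C57BL/6 bone marrow-derived macrophages (BMDMs) without endogenous TTP, immortalized with hcmyc and hRasG12V and transduced with a tet-inducible vector for GFP-TTP-AA. In this mutant, alanine replaces the serines that the kinase MK2 phosphorylates. Each line was a sorted population of transduced cells that expressed the mutant from the vector promoter after 6 h of doxycycline, and not from the TTP gene. The 1 h list summed 3 libraries and held 174397 cDNAs (58132 per library), and the 4 h list summed 2 libraries and held 19167 cDNAs (9584 per library). LPS was given at 1 µg/ml.

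TTP binds elements rich in A and U (AREs) within the 3′UTR of many cytokine mRNAs and recruits deadenylases, so that the bound mRNA is degraded. The core of these elements is the pentamer AUUUA, often in overlapping copies. During an LPS response, MK2 phosphorylates TTP and weakens this function, and a form that cannot be phosphorylated keeps it. TTP itself is encoded by Zfp36, whose own mRNA carries an ARE.

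Each list is a sum over libraries, so no spread between replicates could be computed, and the intervals and tests below compare 2 pooled lists and cover counting error only. The cDNAs of 1 locus are not independent, which makes these intervals too narrow. The header of the 1 h list carried a mark for treating regions as a unit that the header of the 4 h list lacked, so the time and this setting of the site calling cannot be told apart. In the 4 h list, a count of 0 allows a share of up to 0.0157% of all cDNAs and 0.300% of 3′UTR cDNAs (3 counts). Sites that failed the site calling are not in the lists, and their cDNAs are not covered by this bound. In a pooled crosslink list, fewer bound RNAs and weaker binding of each RNA cannot be told apart.

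The sites with most cDNAs at 4 h illustrate how the bound positions differed between the times. For the genes that the results turn on, 29 nt around the strongest 3′UTR site of each list are given 5′ to 3′ from the GENCODE M21 transcripts (GRCm38), with the site at position 15 and every AUUUA and AAUAAA in capitals. AAUAAA is the hexamer that directs cleavage and polyadenylation of most mRNAs. Tnf encodes the cytokine TNF, Ccl3, Ccl4 and Cxcl2 encode chemokines that attract leukocytes, Socs3 encodes an inhibitor of cytokine signalling, Tmsb4x encodes the actin-sequestering thymosin beta 4, and Fth1 encodes the ferritin heavy chain.
Tnf, strongest 1 h site, chr17:35199649-35199677, minus strand: uugcuuaugaauguAUUUAuuuggaaggc
Tnf, strongest 4 h site, chr17:35199424-35199452, minus strand: gaaccucugcuccccacgggagccgugac
Ccl3, strongest 1 h site, chr11:83648016-83648044, minus strand: uauugucauacuuguauuugugacuauuu
Ccl3, strongest 4 h site, chr11:83647987-83648015, minus strand: auucugaaagacuucaggacacguuccuc
Ccl4, strongest 1 h site, chr11:83664540-83664568, plus strand: guauuauuucuauuAUUUAuguuuuaguu
Ccl4, strongest 4 h site, chr11:83664556-83664584, plus strand: uuauguuuuaguuauaggacgcgugucuc
Cxcl2, strongest 1 h site, chr5:90905878-90905906, plus strand: aaguggacacAUUUAUUUAuucauguauu
Cxcl2, strongest 4 h site, chr5:90905901-90905929, plus strand: uguauuuuuacaaauaacaaaaAAUAAAa
Socs3, strongest 1 h site, chr11:117966135-117966163, minus strand: gcacauauAUUUAuAUUUAuacucagaaa
Socs3, strongest 4 h site, chr11:117966097-117966125, minus strand: ucaguaAUUUAuAAUAAAagagcacuauu
Tmsb4x, strongest 1 h site, chrX:167207131-167207159, minus strand: guucaaacaauuuuaauuauuggaaugca
Tmsb4x, strongest 4 h site, chrX:167207100-167207128, minus strand: auuuuuuuaauaugcaAAUAAAguuuuaa
Fth1, strongest 1 h site, chr19:9985002-9985030, plus strand: gcugccuucaucuuuucuauaaguugcac
Fth1, strongest 4 h site, chr19:9985061-9985089, plus strand: accauuucuucaAAUAAAgaauuuuggua
In Tnf, Ccl4 and Cxcl2, the 1 h window held AUUUA and the 4 h window did not, and in Cxcl2, Socs3, Tmsb4x and Fth1 the 4 h window held AAUAAA and the 1 h window did not. Hist1h4d, Cdkn1a and Ybx3, a core histone, the cell cycle inhibitor p21 and a cold-shock domain protein, held AUUUA in the windows of both times.

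The distribution of cDNAs over RNA regions was compared first, to ask where TTP-AA sites were kept. At 1 h, 3′UTRs held 93510 cDNAs, or 53.6% of the list (Wilson 95% interval 53.4 to 53.9), and at 4 h they held 1000 cDNAs, or 5.22% (4.91 to 5.54). The difference was -48.4 percentage points (Newcombe 95% interval -48.8 to -48.0). The share of the coding sequence (CDS) fell from 1.97% to 0.783%, and that of 5′UTRs fell from 0.687% to 0.397%. Intronic cDNAs rose from 7.37% to 23.7% and intergenic cDNAs from 21.8% to 51.4%, with differences of 16.4 and 29.6 percentage points, and exons of non-coding genes rose from 14.5% to 18.5%. When only mRNA exons formed the denominator, the 3′UTR share still fell, by 13.7 percentage points, whereas those of the CDS and 5′UTR rose. Counted as sites, 3′UTRs held 61183 of the 86497 sites at 1 h and 701 of the 9417 at 4 h, the CDS 2331 and 108, 5′UTRs 727 and 36, non-coding exons 4974 and 1156, introns 6217 and 2154, and intergenic sequence 11065 and 5262.

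**Figure D1:**
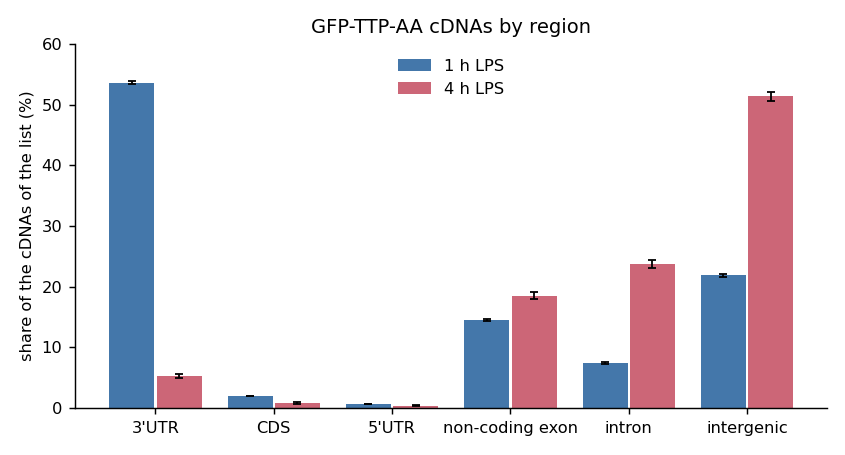
Share of all cDNAs of the GFP-TTP-AA list (y axis, %) in each region at 1 h and 4 h of LPS, with Wilson 95% intervals of counting error as bars. The 3′UTR share stood at 53.6% at 1 h and 5.22% at 4 h, and the intergenic share at 21.8% and 51.4%.

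The fall of the 3′UTR share was compared with the same times in the cells that express wild-type GFP-TTP. In those lists, 3′UTRs held 9.63% of cDNAs at 1 h and 3.12% at 4 h. The odds of a cDNA lying in a 3′UTR fell 21-fold for TTP-AA and 3.31-fold for TTP, a ratio of odds ratios of 0.158 (Wald 95% interval 0.143 to 0.173). The 4 h lists therefore lay closer together in this share than the 1 h lists. Of 21045 genes with an annotated 3′UTR, the TTP list at 4 h had 3′UTR sites in 127. These included 26 of the 198 genes with a TTP-AA 3′UTR site at 4 h.

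Most 3′UTRs that TTP-AA crosslinked at 1 h held no site at 4 h. The 1 h list had 3′UTR sites in 4468 genes and the 4 h list in 198. The 163 genes with sites at both times made up 82.3% of the 4 h genes (76.4 to 87.0) and 3.65% of the 1 h genes (3.14 to 4.24), and they held 90.1% of the 4 h and 22.6% of the 1 h 3′UTR cDNAs. To set this beside the lower depth at 4 h, each 1 h count was scaled to the total of the 4 h list. The lists hold only sites that passed the site calling. A gene with few cDNAs can fail it, so this scaling cannot separate lost sites from lower depth. Of 757 genes with a scaled count of at least 3 (28 or more cDNAs at 1 h), 667 were at 0 at 4 h, or 88.1% (85.6 to 90.2). Together these 757 genes would have held 6917 cDNAs at their 1 h shares and held 665, and 9 of them reached or passed the scaled count. When the 1 h counts were scaled to the 3′UTR cDNAs instead, only 26 genes had a scaled count of at least 3, and 8 of them were at 0. With the main minimum of 10 cDNAs, no gene at 0 passed the test within 3′UTRs given below. At that setting, such a gene was not told from the general fall of 3′UTR cDNAs.

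Relative to the whole list, 271 of 1980 genes tested (13.7%) fell and 5 (0.253%) rose, by a two-sided Fisher exact test of the pooled lists with Benjamini-Hochberg adjustment over the genes with at least 10 cDNAs. Relative to the other 3′UTR cDNAs, 60 genes (3.03%) rose and 2 (0.101%) fell, and 1836 of the tested genes were at 0 at 4 h. The unadjusted p was under the threshold for 112 and 10 genes in these directions. A gene with few cDNAs at 1 h could pass this test only by rising, because a 4 h count of 0 is what its 1 h share predicts. A gene with fewer than 10 cDNAs at 1 h reached the minimum only through its 4 h cDNAs, and some of the 60 did so. For those genes, the call is not independent of the filter.

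**Figure D2:**
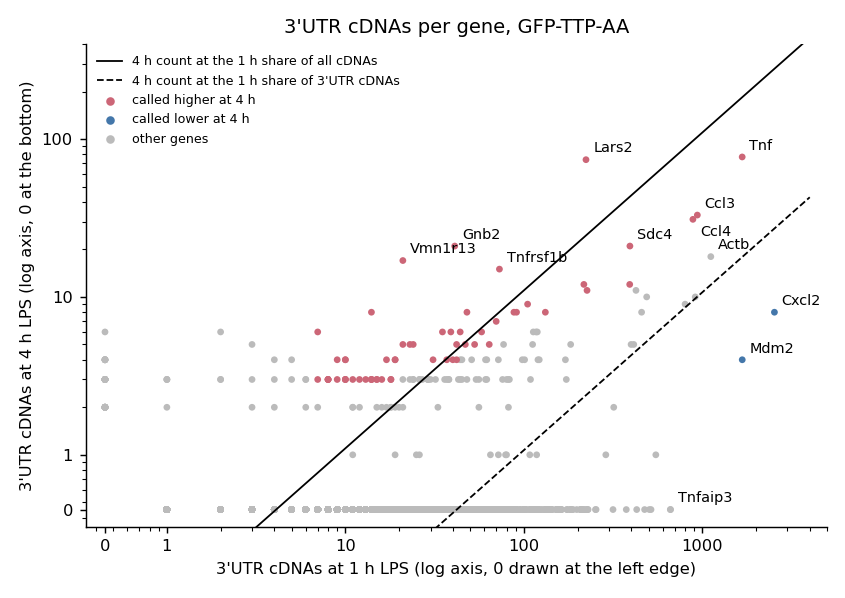
Number of 3′UTR cDNAs per gene at 1 h (x axis) and 4 h (y axis) of LPS in the GFP-TTP-AA lists, both on log axes with 0 drawn at the edge. Genes on the solid line would keep their share of all cDNAs, and genes on the dashed line their share of 3′UTR cDNAs. Tnf, Ccl3 and Ccl4 lie between the lines, Lars2, Gnb2 and Vmn1r13 above both, and Cxcl2 and Mdm2 below both.

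The cytokine mRNAs that led the 1 h list parted at 4 h. Tnf (ENSMUSG00000024401.14) has its 3′UTR in 1 exon at chr17:35199381-35200144 on the minus strand, and it kept most cDNAs of any 3′UTR, with 1673 at 1 h and 77 at 4 h. Its share of 3′UTR cDNAs rose from 1.79% to 7.70%, a ratio of 4.30 (exact 95% interval 3.38 to 5.41, Fisher exact test, adjusted p = 1.37e-22), while its share of the whole list fell 2.39-fold. Ccl3 held 938 and 33 cDNAs and Ccl4 held 886 and 31, with share ratios within 3′UTRs of 3.29 (2.25 to 4.65) and 3.27 (2.21 to 4.68). All 3 genes were at 0 in the TTP-AA list without LPS, and so was Cxcl2. The wild-type list without LPS held 53 cDNAs in Tnf, 54 in Ccl3, 7 in Ccl4 and 4 in Cxcl2. Cxcl2, with 2536 cDNAs the most crosslinked 3′UTR at 1 h, held 8 at 4 h, where its 1 h share of the list predicts 279. It fell 34.8-fold as a share of the list (17.7 to 80.8) and also fell within 3′UTRs, to a ratio of 0.295 (0.127 to 0.582, Fisher exact test, adjusted p = 0.00229). Ccl2, the monocyte chemoattractant, held 913 and 10 cDNAs, a ratio within 3′UTRs of 1.02 (0.489 to 1.89), and 4 of the 10 lay within 20 nt of sequence shared with an annotated small nucleolar RNA. Cxcl10, a chemokine induced by interferon, held 549 cDNAs at 1 h and 1 at 4 h. Thus Tnf rose and Cxcl2 fell relative to the average 3′UTR, whereas both fell relative to the list.

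Over the list of 27 cytokine and chemokine genes, 15 had 3′UTR sites at 1 h and 9 at 4 h, and their summed share of 3′UTR cDNAs was 9.15% at 1 h and 16.8% at 4 h. Of the 14 members tested within 3′UTRs, 3 rose, 1 fell and 10 did not pass the test, where 3.03% of all genes rose and 0.101% fell. The members that rose, Tnf, Ccl3 and Ccl4, held 141 of the 168 cDNAs of the list at 4 h, and the other members together moved in the opposite direction, from 5.41% to 2.70% of 3′UTR cDNAs (ratio 0.499, 0.329 to 0.727). This split was made after the values were seen. The median member held 14 cDNAs at 1 h and 0 at 4 h, and the median of all 1980 genes tested was 21 and 0.

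The listed genes of the negative feedback on inflammatory signalling held few cDNAs at 4 h. So did most genes, as 4305 of the 4468 genes with 1 h sites were at 0. Socs3, an inhibitor of cytokine signalling outside the list below, held 105 and 9 cDNAs and rose within 3′UTRs (ratio 8.02, 3.57 to 15.8). Tnfaip3, the ubiquitin-editing enzyme A20, held 664 cDNAs at 1 h and 0 at 4 h, and Nfkbia, the inhibitor IκBα, held 662 and 0. Against a floor of 3 counts over the 4 h list, their shares of the list were 24.3-fold lower for both genes. The exact two-sided 95% interval allows a fall as small as 19.7-fold. Within 3′UTRs neither passed the Fisher exact test (adjusted p = 0.0523 for both). Nfkbiz, a nuclear IκB protein, held 375 and 0 cDNAs, a list share 13.7-fold lower against that floor. Its interval allows a fall as small as 11.1-fold. The list of 18 NF-κB inhibitors and feedback genes also held the NF-κB subunits Rel, Relb, Nfkb1 and Nfkb2. Of the 18, 13 had sites at 1 h and 2 at 4 h, Rel with 3 cDNAs and Nfkb1 with 1. The summed share of 3′UTR cDNAs was 2.12% at 1 h and 0.400% at 4 h (ratio 0.188, 0.0513 to 0.483). By genes, 2 of 13 kept a site, both of them subunits, where 163 of the 4468 genes of the 1 h list did (3.65%). Of the 8 members tested within 3′UTRs, 0 passed (3.03% of all genes rose and 0.101% fell), and 4 fell relative to the list, as 13.7% of all genes did.

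Other regulators of the early response were at 0. The immediate early transcription factors, such as Junb (316 cDNAs at 1 h) and Klf6 (252), held 1249 cDNAs in 17 of 21 genes at 1 h and 0 at 4 h. The 3′UTRs of MAP kinase phosphatases, which switch off the kinases upstream of MK2, held 317 cDNAs in 7 of 11 genes at 1 h. Those of ARE-binding proteins, TTP and its relatives among them, held 491 cDNAs in 11 of 12 genes at 1 h. Both lists were at 0 at 4 h. The exact upper bound of the share ratio within 3′UTRs, 4 h over 1 h, was 0.277 for the immediate early factors, 1.09 for the phosphatases and 0.705 for the ARE-binding proteins, so for the phosphatases a fall beyond that of all 3′UTRs was not detectable at this depth. The 3′UTR of Zfp36 held 131 cDNAs at 1 h and 0 at 4 h. The study put only the coding sequence of TTP into the vector, so this 3′UTR was not part of the mutant's mRNA. The origin of these cDNAs was not tested. Relative to the list, 6 of 13 tested immediate early factors, 1 of 4 phosphatases and 3 of 9 ARE-binding proteins fell, where 13.7% of all genes tested did. A count of 0 at 4 h was shared by 4305 of the 4468 genes with 1 h sites.

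Among further targets with high counts at 1 h, Nlrp3, the sensor of the inflammasome, held 505 cDNAs and 0 at 4 h, Plau, the urokinase, held 475 and 0, Lpl, lipoprotein lipase, 516 and 0, and Tnfsf9, the ligand of 4-1BB, 429 and 0. Against a floor of 3 counts over the 4 h list, their list shares were 18.5-fold, 17.4-fold, 18.9-fold and 15.7-fold lower. The exact two-sided 95% intervals allow falls as small as 15.0-fold, 14.1-fold, 15.3-fold and 12.7-fold. In all, 6 of the 20 genes with most 3′UTR cDNAs at 1 h were at 0 at 4 h, and 30 of the top 100 were above 0. The p53 pathway genes held 2953 cDNAs at 1 h and 15 at 4 h, in 12 and 3 of 14 genes. Mdm2, the ubiquitin ligase of p53, held 1674 and 4 cDNAs and fell within 3′UTRs to a ratio of 0.223 (0.0608 to 0.573, Fisher exact test, adjusted p = 0.00897), whereas Cdkn1a, its fellow p53 target, held 488 and 10 with a ratio of 1.92 (0.913 to 3.55). Tnf and Mdm2 had near equal counts at 1 h and held 77 and 4 cDNAs at 4 h.

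Some mRNAs of the cytoskeleton and the cell surface kept sites. Sdc4, the cell surface proteoglycan syndecan 4, held 393 and 21 cDNAs, a ratio within 3′UTRs of 5.00 (3.06 to 7.75, Fisher exact test, adjusted p = 1.41e-06), and of the 21, 6 lay within 20 nt of sequence shared with a small Cajal body RNA and 2 with an RNA annotated as miscellaneous. Tmsb4x held 392 and 12 with a ratio of 2.86 (1.47 to 5.06, Fisher exact test, adjusted p = 0.0460). Actb, beta-actin, held 1116 and 18 with a ratio of 1.51 (0.891 to 2.39, Fisher exact test, adjusted p = 1.00). The list of 24 actin cytoskeleton genes included Sdc4, although it encodes a surface proteoglycan. Of the 24, 22 had sites at 1 h and 5 at 4 h, and the summed share was 3.96% and 6.00% of 3′UTR cDNAs. Of 19 tested, 2 rose, Sdc4 and Tmsb4x, where 3.03% of all genes did. The other members held 3.12% and 2.70% (ratio 0.866, 0.570 to 1.26). Secreted macrophage proteins held 2075 and 14 cDNAs (11 and 2 of 18 genes, 0 of 11 tested passed), and MHC class I genes with B2m held 434 and 11, the latter all in B2m, the only member tested, which did not pass within 3′UTRs. Tnfrsf1b, the TNF receptor 2, held 73 cDNAs at 1 h and 15 at 4 h, and rose 19.2-fold within 3′UTRs (10.2 to 33.8). It was at 0 in the TTP-AA list without LPS and held 6 cDNAs in the wild-type list without LPS. Its share of the list was not called different (Fisher exact test, adjusted p = 0.129).

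The 27 targets taken from the study's table, its top 3′UTR targets with Ier3 and Dusp1 as further selected ones, held 19.9% of 3′UTR cDNAs at 1 h and 33.8% at 4 h. Of them, 18 had sites at 4 h, 6 rose and 2 fell within 3′UTRs, where 3.03% and 0.101% of all genes tested did, and 26 fell relative to the list (13.7% of all genes). Without the 6 that rose, the rest held 14058 and 90 cDNAs, a share ratio of 0.599 (0.481 to 0.736). The study chose these genes on the 1 h libraries, so their direction is not independent evidence. Of 10 macrophage marker genes, 8 had 3′UTR sites at 1 h (355 cDNAs) and 0 at 4 h. Of 12 markers of T cells, B cells, fibroblasts and epithelial cells, 0 had a site at either time. Crosslink sites do not measure expression, so these counts cannot show which cells were present. At 4 h they do not separate the 2 sets of markers.

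**Figure D3:**
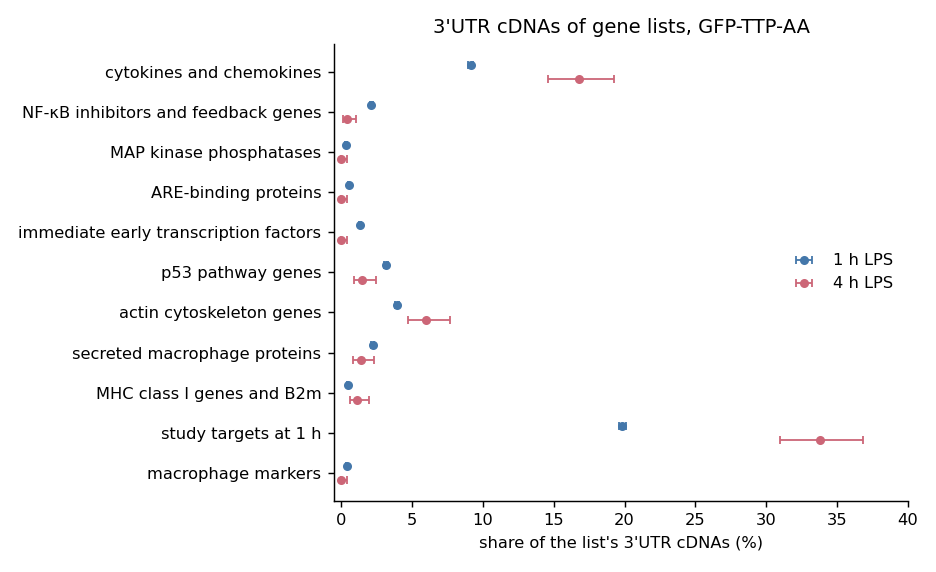
Summed share of 3′UTR cDNAs (x axis, %) held by each gene list (y axis) at 1 h and 4 h of LPS, with Wilson 95% intervals of counting error. Cytokines and chemokines stood at 9.15% and 16.8%, and NF-κB inhibitors and feedback genes at 2.12% and 0.400%.

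A few 3′UTRs ranked higher at 4 h than at 1 h. Lars2, the mitochondrial leucyl-tRNA synthetase, held 223 and 74 cDNAs and rose 31.0-fold within 3′UTRs and also relative to the list, where its share at 4 h was 3.02 times that at 1 h (2.29 to 3.94). The wild-type lists held 291 cDNAs there at 1 h and 197 at 4 h. Its strongest 4 h site (31 cDNAs) lay in a window that is also part of the transcript AA474408, and that nucleotide held 1 cDNA at 1 h. The Lars2 3′UTR was compared with annotated transcripts and not with repeat sequence elsewhere in the genome, so the origin of its cDNAs was not tested. Gnb2, a G protein beta subunit, held 41 and 21 cDNAs, all 21 of them between 350 and 356 nt from the stop codon of a 376 nt 3′UTR. Vmn1r13, annotated as a vomeronasal receptor, held 21 and 17, Pan3, a deadenylase subunit, 14 and 8, and Klhl42 7 and 6. Klhl42 reached the minimum of 10 cDNAs only through its 4 h cDNAs. All 8 cDNAs of Pan3 and of Rnf225 lay within 20 nt of sequence shared with annotated small or ribosomal RNA, at least 16 nt long, and the Rnf225 window also occurs in the small nuclear RNA genes Gm22260, Gm26129 and Gm26325. Such sequence lay near 4.73% of 3′UTR cDNAs at 1 h and 7.00% at 4 h. Whether those cDNAs came from the mRNAs was not tested.

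Further genes among the 60 that rose within 3′UTRs had low counts at 4 h and were chosen after their values were seen. They were Sod2, the mitochondrial superoxide dismutase (47 and 5 cDNAs), Cox17, a copper chaperone (39 and 6), Mdh2, malate dehydrogenase (70 and 7), Pabpc1, the poly(A)-binding protein (58 and 6), and Eif4a1, an initiation factor helicase (64 and 5). Socs3 held 105 and 9 cDNAs, Cebpb, a transcription factor, 226 and 11, Nfe2l2, the oxidative stress factor NRF2, 132 and 8, and Acod1, which makes itaconate, 44 and 6.

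Positions within 3′UTRs were compared next. Of the 701 sites at 4 h, 494 (70.5%, 67.0 to 73.7) lay within 15 nt of a 1 h site, and 227 (32.4%) within 15 nt of a site in the list without LPS. Conversely, 1669 of the 61183 sites at 1 h (2.73%, 2.60 to 2.86) lay within 15 nt of a 4 h site. In non-coding exons, introns and intergenic sequence these shares of the 1 h sites were 44.2%, 24.1% and 46.0%. By this measure, sites outside mRNA exons were kept at a higher share than sites in 3′UTRs. The measure depends on the number of sites at each time, and in 3′UTRs that number fell most. In the reverse direction, 84.2%, 43.0% and 57.1% of the 4 h sites in these regions lay within 15 nt of a 1 h site. Of these regions, only non-coding exons lay above 3′UTRs (70.5%) in both directions.

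In Tnf, Ccl4 and Cxcl2, a larger share of cDNAs lay downstream of the AUUUA copies at 4 h than at 1 h. Most 4 h sites had a 1 h site within 15 nt, 28 of 38 in Tnf, 19 of 19 in Ccl3, 17 of 17 in Ccl4 and 4 of 4 in Cxcl2. In Tnf, those at positions 697 to 724 from the stop codon had only 1 such site, at position 711, with 1 cDNA. In the 764 nt 3′UTR of Tnf, 8 copies of AUUUA span, with 20 nt on each side, the positions 401 to 655 from the stop codon. This stretch held 1572 of 1673 cDNAs at 1 h (94.0%, 92.7 to 95) and 31 of 77 at 4 h (40.3%, 30.02 to 51.4), a difference of -53.7 percentage points (-64.0 to -42.5). The other 46 cDNAs at 4 h all lay downstream of it, between positions 693 and 752. The 1 h list had 38 cDNAs downstream of the stretch. All but 1 of these lay at positions 656 to 678, and that 1 lay at position 711. The strongest 4 h site, at position 707, held 12 cDNAs at 4 h and 0 at 1 h. In the wild-type TTP lists, the same stretch of Tnf held 720 of 727 cDNAs at 1 h and 35 of 35 at 4 h. The plot of cDNAs along these 3′UTRs was drawn after the values were seen.

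Ccl4 showed the same pattern at lower counts, with 795 of 886 cDNAs (89.7%) in its AUUUA stretch at 1 h and 17 of 31 (54.8%, 37.8 to 70.8) at 4 h. The difference was -34.9 percentage points (-52.1 to -18.7), and the wild-type lists had 55 of 67 there at 1 h (82.1%) and 27 of 27 at 4 h. In Cxcl2, 2534 of 2536 cDNAs lay in the stretch at 1 h and 4 of 8 at 4 h, and all 8 lay between 1468 and 1481 nt from the stop codon of a 1494 nt 3′UTR. Ccl3 differed, with 888 of 938 cDNAs (94.7%) and 31 of 33 (93.9%, 80.4 to 98.3) in its stretch, a difference of -0.730 points (-14.3 to 3.95). Thus sites downstream of the AREs made up a larger share in Tnf, Ccl4 and Cxcl2 at 4 h, and in Ccl3 no such difference was detectable at this depth.

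**Figure D4:**
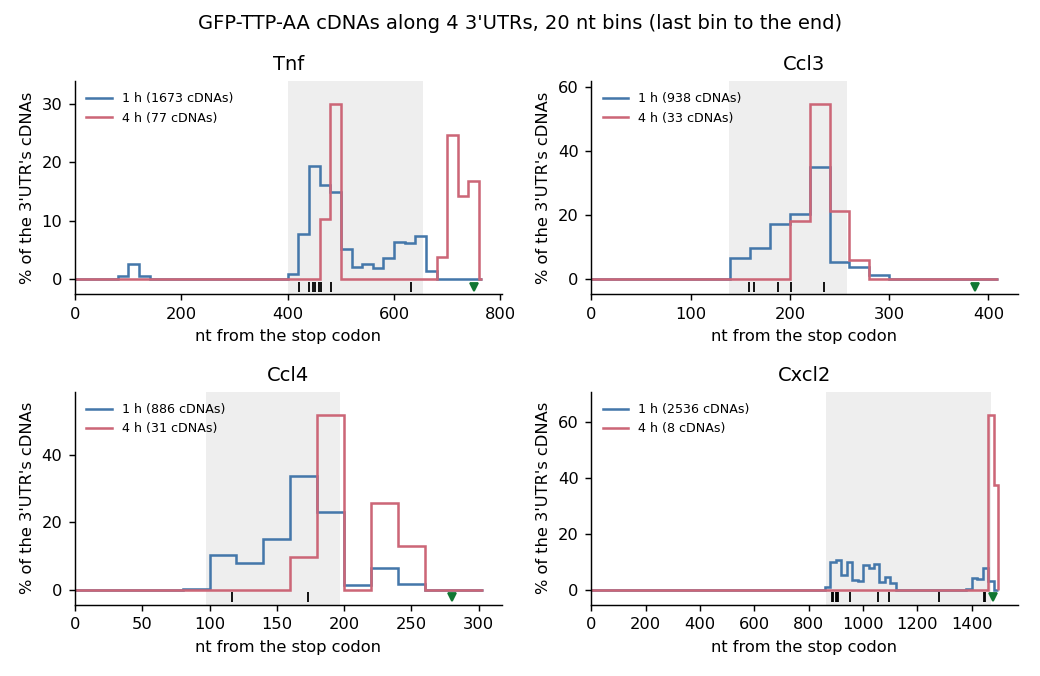
Share of each 3′UTR's cDNAs (y axis, %) against the distance from the stop codon (x axis, nt) in GFP-TTP-AA at 1 h and 4 h of LPS. Grey marks the AU-rich stretch, ticks the pentamers and triangles the polyadenylation hexamer, and 46 of 77 Tnf cDNAs at 4 h lie to the right of the grey area.

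The AU-rich motif remained common around the 4 h sites. AUUUA lay wholly within 20 nt of 34.6% of 3′UTR sites at 1 h and of 29.7% at 4 h, a difference of -4.90 percentage points (-8.19 to -1.40), where 7.16% and 6.99% of all positions in the same 3′UTRs had it. The motif was read on the transcript strand. The longer forms UAUUUAU and UUAUUUAUU, which contain AUUUA, lay near 16% and 4.19% of sites at 1 h and near 14.7% and 2.85% at 4 h, and over all genes neither interval of the difference excluded 0. Without Tnf, Ccl3 and Ccl4, both differences excluded 0, with -5.61 percentage points (-7.77 to -2.98) for UAUUUAU and -2.06 (-2.94 to -0.614) for UUAUUUAUU. In that setting AUUUA lay near 34.4% of 1 h and 26.5% of 4 h sites. In the genes with sites at both times the AUUUA difference was -2.91 percentage points (-6.62 to 1.02). The GU-rich pentamer UGUGU, included as another motif, lay near 9.23% and 6.85% of sites, where all positions had 8.48% and 8.58%.

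The share of cDNAs near AUUUA moved in both directions between genes. In Ccl2, 363 of 913 cDNAs lay within 20 nt of AUUUA at 1 h and 0 of 10 at 4 h, and in Nfe2l2 41 of 132 and 0 of 8. In Sdc4, the counts were 66 of 393 and 9 of 21, and in Ybx3 348 of 801 and 9 of 9. Tnfrsf1b had 52 of 73 and 9 of 15. Lars2, Gnb2 and Tmsb4x hold no AUUUA in their 3′UTRs.

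By contrast, AAUAAA was more common around the late sites. The hexamer lay within 20 nt of 5.13% of 3′UTR sites at 1 h and 16.7% at 4 h, a difference of 11.6 percentage points (8.97 to 14.5), where 3.60% and 3.62% of all positions had it. The difference was 10.7 points (7.98 to 13.9) in the genes with sites at both times and 12.5 points (9.74 to 15.7) without Tnf, Ccl3 and Ccl4. In the TTP-AA list without LPS, AAUAAA lay near 11.6% of sites. In the wild-type lists, it lay near 2.35% of sites at 1 h and 1.30% at 4 h, below all positions in the same 3′UTRs (3.47% and 3.27%).

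A larger share of sites lay near the annotated 3′ ends at 4 h. The last 100 nt of the 3′UTR held 18.2% of 1 h sites and 28.7% of 4 h sites, a difference of 10.4 percentage points (7.21 to 13.9), and 32.8% of sites in the TTP-AA list without LPS. The first 100 nt also held more, with 7.47% at 1 h and 9.99% at 4 h, and the median relative position was 0.530 and 0.529. The median length of the 3′UTRs behind the sites was 1612 nt at 1 h and 1195 nt at 4 h. In a band of 10 to 39 nt before the end, chosen after the values were seen, lay 1463 of 61183 sites at 1 h (2.39%, 2.27 to 2.52) and 112 of 701 at 4 h (16%, 13.5 to 18.9), and the band covers 1.53% and 1.37% of the positions. These 112 sites belonged to 38 genes and held 175 of the 1000 cDNAs. The difference was 13.6 points (11.1 to 16.5), and 12.1 points (9.41 to 15.1) in the genes with sites at both times. Of the 117 sites at 4 h with AAUAAA nearby, 73 lay in this band (62.4%), against 794 of 3140 at 1 h (25.3%). The TTP-AA list without LPS had 6.98% of its 3′UTR sites there, and the wild-type lists had 1.27% at 1 h and 0.559% at 4 h.

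**Figure D5:**
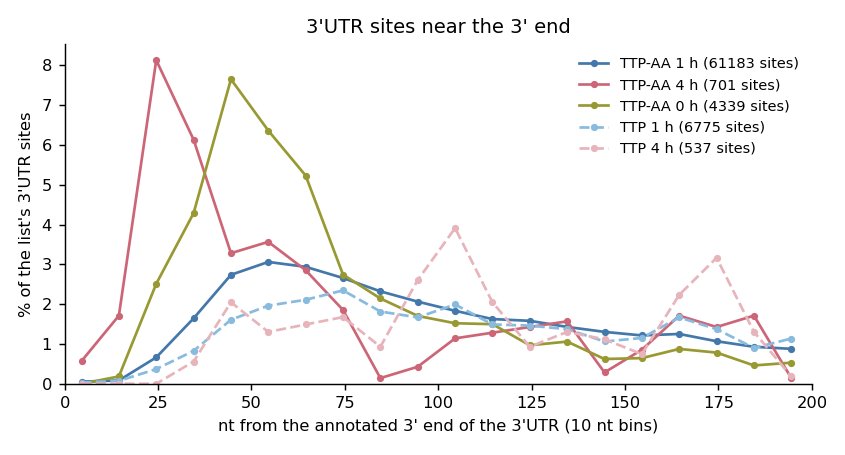
Share of 3′UTR sites (y axis, %) by distance from the annotated 3′ end (x axis, nt, bins of 10 nt) in the TTP-AA lists (solid) and the TTP lists (dashed). The TTP-AA list at 4 h is highest at 20 to 29 nt, with 8.13% of its sites against 0.664% at 1 h.

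Examples of such sites were found in Tmsb4x, whose 7 sites at 4 h lay between 375 and 390 nt of a 408 nt 3′UTR, in Fth1 (125 to 133 of 156 nt) and in Socs3 (1431 to 1450 of 1474 nt). At 1 h, the strongest sites of these genes lay 52, 82 and 70 nt before the end, and at 4 h 21, 23 and 32 nt. Other genes kept the same place. The strongest sites of Ybx3, Cdkn1a, Actb and B2m at the 2 times lay 3, 3, 5 and 1 nt apart.

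Outside 3′UTRs, single loci carried much of the 4 h list. Of 3171 gene regions and intergenic bins of 1000 nt, 345 (10.9%) rose and 361 (11.4%) fell as a share of the list, and 310 of those that fell were 3′UTRs. Outside 3′UTRs, 340 of 1191 (28.5%) rose and 51 (4.28%) fell. The 3′UTR share fell from 53.6% to 5.22%, so the shares of all other regions together had to rise. The excess of rises outside 3′UTRs is therefore not a result separate from that fall. Whether a feature rose relative to the other cDNAs outside 3′UTRs was not tested. Among introns 79 of 260 rose and 3 fell, among intergenic bins 209 of 672 rose and 29 fell, and among non-coding exons 46 of 163 rose and 15 fell. An intron of Pde1c, a phosphodiesterase gene, held 154 cDNAs at 1 h and 871 at 4 h, in 10 sites within chr6:56240582-56240591, and 400 in the list without LPS. Xlr5a held 83 and 149 intronic cDNAs, Cmss1 820 and 264, and Cdk8 1135 and 197, all higher at 4 h as a share of the list. An intergenic bin at chr11:62240001-62241000 on the minus strand held 10 and 135 cDNAs, in 4 sites at 4 h.

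Small and ribosomal RNAs showed no common direction as shares of the whole list. These shares also carry the fall of the 3′UTR share, and shares of the cDNAs outside 3′UTRs were not compared. The ribosomal RNA-like locus of Gm26917 and Gm42418 (chr17:39843013-39848788) held 10.4% of cDNAs at 1 h and 13.0% at 4 h. Within it, Gm42418 rose from 5.67% to 9.71% of the list and Gm26917 fell from 3.52% to 2.23%, both past the Fisher exact test. Small nuclear RNAs, the RNA parts of the spliceosome, rose as a group from 1.37% to 3.05%, a ratio of 2.23 (2.03 to 2.44). The Y RNAs Rny1 and Rny3, partners of the Ro60 protein, held 0.774% and 0.798% (ratio 1.03, 0.867 to 1.22). The 7SK RNA, which holds the elongation factor P-TEFb inactive, held 0.166% and 0.256% (ratio 1.54, 1.11 to 2.09). Mitochondrial tRNAs held 274 cDNAs at 1 h and 1 at 4 h, a share ratio of 0.0332 (0.000838 to 0.187). Long intergenic non-coding RNAs outside the chromosome 17 locus fell from 0.883% to 0.136%.

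In mRNAs outside 3′UTRs, few features rose or fell. In the CDS 4 of 69 rose and 3 fell, and in 5′UTRs 2 of 27 rose and 1 fell. Wtap, a subunit of the m6A methyltransferase complex, held 16 cDNAs in its 5′UTR at 1 h and 25 at 4 h (Fisher exact test, adjusted p = 7.85e-14), and Grcc10 held 51 and 17. The CDS of Washc1, an actin regulator of endosomes, held 151 and 6 cDNAs, and the CDS of Tnf held 9 and 5.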

How the data were processed

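iCLIP was performed on GFP-TTP and GFP-TTP-AA in 15 libraries of 6 groups. The authors deposited 1 list of crosslink sites per group, and the deposited value of a site is a score, the signed number of unique cDNAs summed over the libraries of a group, whose sign gives the strand. The authors collapsed PCR duplicates with random barcodes, mapped reads to mm10 (GRCm38, Ensembl 75) with Bowtie (the version is not given in the sources used here) and kept sites at a false-discovery rate of 0.05 in iCount (100 permutations, 15 nt neighbourhood). The submitters' notes also name Bowtie and GRCm38. The 1 h headers carry a mark for regions as a unit.

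Sites were assigned on their strand with GENCODE M21, a later annotation, in the order 3′UTR, CDS, 5′UTR, non-coding exon, intron, intergenic (Python 3.11.15, numpy 2.4.6, pandas 2.3.3, scipy 1.17.1, matplotlib 3.10.9). Where a gene has several 3′UTRs, the longest was used, and motifs were counted on the spliced transcript. The depth was 174397 cDNAs at 1 h and 19167 at 4 h. Shares have Wilson, differences Newcombe and ratios exact 95% intervals. Features with at least 10 cDNAs over both lists were compared by a two-sided Fisher exact test with Benjamini-Hochberg adjustment at a threshold of 0.05. A count of 0 was given a floor of 3 counts. Overlapping genes share sites, which counts per gene do not resolve. The tests were checked on simulated data.

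Named genes were the 10 that held most 3′UTR cDNAs at either time, the called genes with the 8 most extreme odds ratios in either direction, the 4 features with most 4 h cDNAs in each other region and list members with at least 5 cDNAs at 4 h or called. Genes outside this rule were chosen after their values were seen, as were the sequence windows of the 1 h sites and of Socs3, Cxcl2 and Fth1. The genes, the 12 gene lists and the comparisons were chosen with earlier results of these data known. The alternatives tried were other weights of sites, count minimums, denominators, windows and left-out loci. The files of the groups without LPS were used only for values given beside a result. Some results are not reported here.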

Additional observations from a re-analysis of the deposited data

Results flagged for a closer look

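One result was singled out because the change from 1 h to 4 h differed between the proteins. The odds that a cDNA lay in a 3′UTR fell 21-fold in TTP-AA and 3.31-fold in TTP, and the ratio of these odds ratios was 0.158 (Wald 95% interval 0.143 to 0.173, counting error only). Both changes rest on 1 pooled list per group, and the 1 h lists of both proteins carried the same header mark.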

How the results depend on the processing

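No paired analysis was possible because each list is a sum over libraries, and for the same reason no library could be left out in turn. Of 84 recomputed values, 60 kept their direction and their call, and the cause of the others was not tested unless the change of denominator, window or filter itself gives it. With only mRNA exons as the denominator, the difference in share was 8.73 percentage points for the CDS and 4.98 for 5′UTRs, against -1.19 and -0.290 with all cDNAs. The number of shared 3′UTR genes was 45 of 48 genes at 4 h with at least 5 cDNAs per gene. It was 70 of 92 with sites of at least 2 cDNAs. Genes at 0 at 4 h numbered 319 of 385 with a scaled count of at least 5. With scaling to 3′UTR cDNAs, 8 of 26 were at 0. The share of 4 h sites near a 1 h site was 40.7% at the same nucleotide, 77.7% within 50 nt and 60.5% with sites of at least 2 cDNAs, and that of 1 h sites near a 4 h site was 0.466%, 5.03% and 4.07%. Genes higher at 4 h within 3′UTRs numbered 60 of 1980 tested. They numbered 17 of 778 with sites of at least 2 cDNAs and 5 of 1980 against the whole list. Genes lower numbered 2 of 1980, and 271 of 1980 against the whole list. They numbered 4 of 1085 with at least 20 cDNAs per gene and 0 of 1791 with each site counted once. Without sites near small or ribosomal RNA sequence, a setting added after the data were seen, they numbered 4 of 1918. Gene regions higher at 4 h numbered 188 of 1674 with at least 20 cDNAs. They numbered 171 of 2272 with each site counted once and 211 of 1648 with sites of at least 2 cDNAs. Those lower numbered 148 and 216 under the last 2. The AUUUA difference was -1.66 percentage points within 10 nt of the site, where its interval included 0. The 1000 3′UTR cDNAs at 4 h limit what single genes can show.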
